A study of Mus musculus with 22 samples.

Results

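The genes described here are 10 chosen elastic fibre genes of the mouse, not a complete set. They were followed in fibroblasts sorted from skin during the first days of stretch by an implanted expander. They were taken by symbol: a row of the count table was a member where its Ensembl identifier maps to Eln, Fbn1, Fbn2, Mfap4, Mfap5, Emilin1, Fbln1, Fbln2, Fbln5 or Efemp2. This gave 10 of the 55414 rows, 1 for each symbol, and all 10 were among the 17554 genes with enough counts to be tested. The rule itself uses symbols and no measured value, although the genes were chosen with earlier results of these data known.

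All mice were operated on through a back incision, so the surgery is common to every group. EXP mice then carried a hydrogel that expands under the skin near the neck, and CTRL mice had the surgery without it. Skin was taken on day 1 (4 CTRL and 5 EXP libraries), day 2 (3 and 3) and day 4 (4 and 3), 22 libraries in all. Cells with CD31, CD45, CD117 or EpCAM on their surface were discarded and live cells with CD34 and PDGFRα were kept, after which bulk RNA was sequenced. Strain, sex and age are not given in the sources used here. The labels number the libraries of a group and do not say that each came from its own mouse, so p-values measure the spread between these libraries.

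Elastic fibres let skin recoil after it is stretched. Elastin, secreted as soluble tropoelastin, is laid onto a scaffold of fibrillin microfibrils and is made insoluble by cross-links that enzymes of the lysyl oxidase family form. Fibulins, emilins and microfibril-associated proteins bind elastin, fibrillin or the cross-linking enzymes and help to place elastin on the scaffold, and dermal fibroblasts are the main source of these proteins in skin.

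Library totals ran from 21461294 to 30210204 counts. Both genes of the gate were present in every library, and both moved with the expander. Pdgfra lay between 227 and 1022 CPM (a gene's counts per 1000000 of the TMM-scaled total of its library) and was higher in EXP on all 3 days. Cd34 held 1274 to 1544 CPM in CTRL and 262 to 778 CPM in EXP on day 1, 1677 to 2086 and 216 to 665 CPM on day 2, and 1383 to 2346 and 442 to 1552 CPM on day 4. It fell by 1.74 (SE 0.34, edgeR adjusted p 8.10e-04) on day 1 and fell by 2.07 (SE 0.43, edgeR adjusted p 0.00379) on day 2 on the log2 scale, and its day 4 value was -0.93 (SE 0.39, edgeR adjusted p 0.0948). The part of these shifts in the members' values was not tested. A set of 192 genes around Rnf10 split the libraries into 7 with high and 15 with low levels, and 0 members are among these genes. The high libraries were 3 CTRL and 2 EXP of day 1 and 2 CTRL of day 4. All day 2 libraries and all day 4 EXP libraries were low, so the split is partly tied to day and arm. Values within 1 side of this split are given beside the results of days 1 and 4.

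Promoter sequence of 250 bases before an annotated start is shown for Fbln1 and Fbln5, whose RNA was lower in EXP on several days, and for Efemp2, whose RNA was higher. RefSeq windows on build GRCm38.p6 existed for 6 of the 10 members (Fbn1, Emilin1, Fbln2, Fbln5, Fbln1 and Efemp2), and these 3 are the ones that lie outside annotated exons. The windows are chr15:85205699-85205948 for Fbln1 (plus strand), chr12:101819120-101819369 for Fbln5 (minus strand) and chr19:5473696-5473945 for Efemp2 (plus strand). They are read 5′ to 3′ on the strand of the gene, and capitals mark matches, on either strand, to CAGAC (a SMAD motif), GGGCGG (a GC box) or CACGTG (an E-box).
Fbln1: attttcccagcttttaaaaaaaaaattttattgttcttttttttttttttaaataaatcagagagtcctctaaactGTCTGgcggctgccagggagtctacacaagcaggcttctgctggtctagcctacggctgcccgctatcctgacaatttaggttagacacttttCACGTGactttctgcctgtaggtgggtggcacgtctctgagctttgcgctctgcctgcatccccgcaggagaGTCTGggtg
Fbln5: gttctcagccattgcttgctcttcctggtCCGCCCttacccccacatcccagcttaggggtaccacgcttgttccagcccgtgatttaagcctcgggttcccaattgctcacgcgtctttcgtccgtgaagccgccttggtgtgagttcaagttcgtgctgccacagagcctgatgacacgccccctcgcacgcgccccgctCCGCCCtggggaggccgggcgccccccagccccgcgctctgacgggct
Efemp2: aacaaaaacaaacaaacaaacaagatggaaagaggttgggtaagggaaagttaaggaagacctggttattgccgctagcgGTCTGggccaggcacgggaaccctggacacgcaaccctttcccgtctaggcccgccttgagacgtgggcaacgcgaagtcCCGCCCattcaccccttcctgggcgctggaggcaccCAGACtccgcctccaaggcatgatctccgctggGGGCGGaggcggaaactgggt

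The Fbln1 window held 2 matches to the SMAD motif and 1 to the E-box, and 46.4% of its bases were G or C. The window before Fbln5 held 2 GC boxes and was 65.2% G or C. That before Efemp2 held 2 matches to the SMAD motif and 2 GC boxes and was 59.2% G or C. The median over 32851 windows of the same length was 52.4% G or C, and 42.2% of those windows held the SMAD motif, 32.7% a GC box and 6.02% the E-box. None of the 3 windows held TGANTCA (an AP-1 motif, in 6.75% of windows), GGAATG (a TEAD motif, 12.6%) or TATAAA (a core promoter box, 12.4%), no marked matches overlap, and a match is only a description of the letters.

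On day 1 most elastic fibre genes were lower in EXP. With edgeR's quasi-likelihood test and Benjamini-Hochberg adjustment over all tested genes, 7 of the 10 members fell, 0 rose, and 3 did not pass an adjusted p of 0.05. Of all tested genes 28.6% were called on that day, 13.9% higher and 14.7% lower. Each of the 9 fits that left out 1 library of day 1 called 4 to 6 members, at backgrounds of 23% to 27.6%. The members' median log2 fold change was -0.81, against 0.02 over all tested genes. For Fbn1, Fbln1, Fbln5 and Mfap5 every EXP library lay below every CTRL library. No share of all tested genes separated in this way is given, so separations of members here and below are descriptions only. Within the high side of the library split (3 CTRL against 2 EXP) 2 members were called, Eln and Mfap4, at a background of 13.9%, and the signs of all 10 were unchanged.

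By day 2 the picture had divided. Fbn2 and Efemp2 rose and Fbln1 fell, 3 of 10 members, where 13.4% of all tested genes were called (7.72% higher and 5.71% lower). The members' median log2 fold change was -0.06, against 0.02 over all tested genes. The EXP libraries of Eln, Fbn1 and Fbln1 all lay below the CTRL libraries. Of these genes, Eln and Fbn1 were not called by edgeR over all libraries. Limma voom called both (adjusted p 0.0379 and 0.0401), as did edgeR on the day 2 libraries alone (0.0129 and 0.0139), where 26% and 22.9% of tested genes were called.

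By day 4 Fbn2, Efemp2, Mfap5 and Emilin1 rose and Fbln1 and Fbln5 fell. These are 6 of 10 members, 4 higher and 2 lower, where 22.5% of all tested genes were called (12.8% higher and 9.66% lower). The median over the members was 0.21, against 0.03 over all tested genes, and the members called did not share a direction. Among the low-side libraries of the split (2 CTRL against 3 EXP) 0 members were called, as was 0.00607% of all tested genes (1 gene), and the log2 fold changes of the 6 members called over all libraries lay between -1.29 and 2.74 with unchanged signs.

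**Figure D1:**
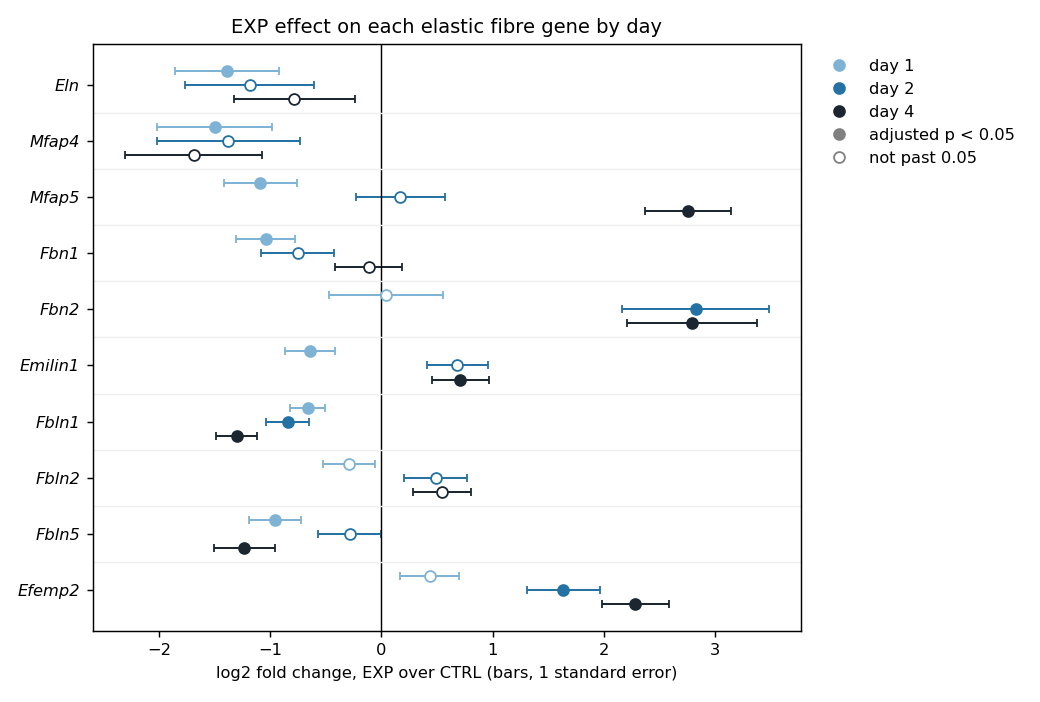
Log2 fold change of EXP over CTRL (x axis) for each elastic fibre gene (y axis) on days 1, 2 and 4, with bars of 1 standard error and filled points where the edgeR adjusted p was under 0.05. Fbn2, Efemp2 and Mfap5 reach values between 2.28 and 2.79 on day 4, while Fbln1 stays left of 0 on all 3 days.

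Eln (ENSMUSG00000029675) encodes tropoelastin, the soluble form of the elastic core. CTRL libraries of day 1 held 2785, 2747, 1919.7 and 5539 CPM, and EXP libraries held 1119, 832, 838, 1417 and 2001 CPM. The groups overlapped through a single EXP library, and Eln fell by 1.39 on the log2 scale (SE 0.47, edgeR adjusted p 0.0324). In bulk RNA fewer cells that express a gene and less RNA per cell cannot be told apart. The day 1 call was lost in 4 of the 9 fits that left out 1 library, and without CTRL replicate 4, the highest library, its edgeR adjusted p was 0.136. It was also lost with no filter on low counts (0.0967).

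Later differences of Eln had the same sign and were not called by edgeR over all libraries. CTRL libraries of day 2 held 2316, 1951 and 3040.3 CPM and EXP libraries 711, 1384 and 1119.9 CPM, without overlap, and the log2 fold change was -1.18 (SE 0.58, edgeR adjusted p 0.189). The day 4 CTRL libraries held 2118, 1108, 3109 and 2002 CPM against 226, 969 and 2436 CPM in EXP, at -0.78 (SE 0.54, edgeR adjusted p 0.312). The highest day 4 EXP library stood above all CTRL libraries but 1 and the lowest stood below all of them. Without EXP replicate 3 the day 4 value was -1.78 (edgeR adjusted p 0.0257), which is a call.

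Smooth muscle also makes elastin, so its markers are given beside these values. The summed CPM of 9 pericyte and smooth muscle markers was 34.4 to 83.4 in CTRL and 21.1 to 38.2 in EXP on day 1, 56.7 to 68.3 and 34.1 to 59.5 on day 2, and 43.4 to 78.4 and 49.9 to 54.1 on day 4. Myh11, the defining smooth muscle myosin, was at 0 in 10 libraries and at most 2.34 CPM. Of the 8 markers tested, 1 fell on day 1 (Cspg4), 1 rose and 1 fell on day 2 (Acta2 and Des) and 1 rose on day 4 (Acta2). The part of such cells in the members' values was not tested.

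Fbn1 (ENSMUSG00000027204) encodes fibrillin-1, the main microfibril protein of adult tissue. On day 1 its CTRL libraries held 898, 1373, 734 and 923 CPM and its EXP libraries 584, 312, 622, 404 and 462 CPM, with no overlap. Fbn1 fell by 1.04 (SE 0.27, edgeR adjusted p 0.00587) on the log2 scale, a call that no left-out library removed. The CTRL libraries of day 2 lay close together, at 1072, 1013 and 1051 CPM, and the EXP libraries, at 525, 598 and 737 CPM, were all lower. The day 2 value of -0.75 (SE 0.33, edgeR adjusted p 0.132) was not a call. By day 4 the ranges of 890.3, 671, 1837 and 964 CPM in CTRL and 804, 1421 and 793 CPM in EXP overlapped. The day 4 value of -0.12 (SE 0.30, edgeR adjusted p 0.817) had no stable sign, being 0.20 on library totals without TMM scaling.

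Fbn2 (ENSMUSG00000024598) encodes fibrillin-2, a microfibril protein of development and repair. It was the least abundant member, with at least 50 counts in every library. Day 1 libraries held 7.83, 4.02, 10.8 and 13.9 CPM in CTRL and 10.1, 16.3, 12.8, 3.02 and 4.99 CPM in EXP, and the log2 fold change was 0.04 (SE 0.51, edgeR adjusted p 0.962). CTRL libraries of day 2 held 2.49, 8.35 and 3.55 CPM and EXP libraries 22.1, 24.9 and 54.8 CPM. All EXP libraries stood above all CTRL libraries, and Fbn2 rose by 2.82 (SE 0.66, edgeR adjusted p 0.00863) on the log2 scale. The separation was again complete on day 4, with 11.4, 4.37, 9.30 and 5.23 CPM in CTRL and 84.3, 50.6 and 22.3 CPM in EXP, and the rise was 2.79 (SE 0.59, edgeR adjusted p 0.00356). Neither call was lost when any library of its day was left out.

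Mfap4 (ENSMUSG00000042436) encodes a microfibril-associated glycoprotein that binds elastin and fibrillin. CTRL libraries of day 1 held 1499, 1922, 798 and 2612 CPM and EXP libraries 380.2, 693, 619.7, 517 and 809 CPM, the highest EXP value just above the lowest CTRL value. Mfap4 fell by 1.50 (SE 0.52, edgeR adjusted p 0.0358) on the log2 scale, and the call was lost in 6 of the 9 fits without 1 library, with voom (adjusted p 0.0541) and with no filter (0.101). The day 2 libraries held 1491, 663 and 1621 CPM in CTRL and 273, 695 and 486 CPM in EXP, at -1.38 (SE 0.64, edgeR adjusted p 0.165), and voom (adjusted p 0.0363) and the day 2 fit alone (0.0471) called it. On day 4 CTRL libraries held 4423, 1455, 2339 and 1866 CPM and EXP libraries 124, 610.1 and 1609 CPM. EXP overlapped CTRL through replicate 3, and the log2 fold change of -1.69 (SE 0.62, edgeR adjusted p 0.0552) did not pass. The call depended on the setting. Without EXP replicate 3 the value was -2.74 (edgeR adjusted p 0.00599) and without CTRL replicate 2 it was -1.88 (0.0470). Mfap4 was also called on day 4 by DESeq2 (adjusted p 0.0120) and voom (0.0271), and by edgeR on library totals without TMM (0.0447) and with a covariate for the split (0.0494).

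Eln and Mfap4 varied together within groups. In 5 of the 6 groups the same library was highest for both genes, and in 5 of the 6 the same library was lowest. Of the other pairs counted, Eln and Fbn1 shared the highest library in 1 group and the lowest in 5. For Efemp2 and Mfap5 these counts were 3 and 2, and for Fbn2 and Fbln2 1 and 1. These are counts over libraries that share their preparation, given without a test.

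Mfap5 (ENSMUSG00000030116), also called MAGP-2, encodes a small microfibril-associated glycoprotein that binds fibrillins. Its direction turned between days. Day 1 CTRL libraries held 92.3, 107, 149.7 and 98.0 CPM and all 5 EXP libraries were lower, at 63.9, 75.7, 39.3, 46.1 and 37.5 CPM, a fall of 1.09 (SE 0.33, edgeR adjusted p 0.0173) on the log2 scale that was lost without CTRL replicate 3 (adjusted p 0.0653). CTRL and EXP libraries overlapped on day 2, at 38.7, 65.5 and 61.2 CPM and 50.3, 52.5 and 83.1 CPM, and the difference was 0.17 (SE 0.40, edgeR adjusted p 0.828). On day 4 CTRL libraries held 100.1, 117, 96.6 and 69.8 CPM and EXP libraries 646, 1087 and 211 CPM. Every day 4 EXP library stood above every other library of the study, and Mfap5 rose by 2.76 (SE 0.38, edgeR adjusted p 2.44e-04) on the log2 scale, a 6.77-fold difference.

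Emilin1 (ENSMUSG00000029163) encodes emilin-1, a glycoprotein found where elastin meets microfibrils. Its CTRL libraries of day 1 held 173, 112, 152 and 181 CPM against 121, 95.7, 108, 83.2 and 86.7 CPM in EXP, and it fell by 0.64 (SE 0.22, edgeR adjusted p 0.0350) on the log2 scale. On day 2 the values were 86.0, 97.6 and 141 CPM in CTRL and 200.1, 115 and 206 CPM in EXP, at 0.68 (SE 0.27, edgeR adjusted p 0.102). On day 4 they were 96.5, 80.7, 151 and 106 CPM and 219.7, 189.6 and 124 CPM, a rise of 0.71 (SE 0.25, edgeR adjusted p 0.0474). The groups overlapped on every day, and both calls were sensitive to single libraries: 6 of 9 such fits lost the fall and 5 of 7 lost the rise. The fall was also lost on library totals without TMM (adjusted p 0.179) and with the split as a covariate (0.0566), and the rise with DESeq2 size factors (0.0539), with voom (0.0554) and in the day 4 fit alone (0.141). On day 2 Emilin1 was called on library totals (1.17, adjusted p 0.00919), with voom (0.74, 0.0173) and without EXP replicate 2 (0.90, 0.0431).

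Fbln1 (ENSMUSG00000006369) encodes fibulin-1, which binds elastin and basement membrane proteins. It was the member called in 1 direction on all 3 days. CTRL libraries of day 1 held 501, 534, 497 and 610.3 CPM and EXP libraries 361, 394, 356, 254 and 325 CPM, a fall of 0.66 (SE 0.16, edgeR adjusted p 0.00329) on the log2 scale. Day 2 CTRL libraries held 544, 515 and 517 CPM and EXP libraries 244, 335 and 301 CPM, a fall of 0.84 (SE 0.19, edgeR adjusted p 0.00669). Day 4 CTRL libraries held 681, 601, 695 and 611 CPM and EXP libraries 190.0, 266 and 332 CPM, a fall of 1.30 (SE 0.19, edgeR adjusted p 2.44e-04). CTRL and EXP did not overlap on any day, and no EXP library of any day reached the lowest CTRL library of any day. The day 2 call was lost without EXP replicate 1 (adjusted p 0.0575) and on library totals without TMM scaling (-0.38, adjusted p 0.0562).

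Fbln2 (ENSMUSG00000064080) encodes fibulin-2, a binder of elastin, fibrillin and basement membrane proteins. It was not called on any day. Day 1 libraries held 2094, 1938, 1981 and 1714 CPM in CTRL and 1657, 967, 1432, 1779 and 2050.0 CPM in EXP, at -0.29 (SE 0.23, edgeR adjusted p 0.364). Day 2 libraries held 2539, 1451 and 2413 CPM and 3878, 2486 and 2617 CPM, at 0.49 (SE 0.28, edgeR adjusted p 0.271), and day 4 libraries 2085, 2013, 2547 and 1663 CPM and 4274, 2605 and 2213 CPM, at 0.55 (SE 0.26, edgeR adjusted p 0.137). The groups overlapped on every day. On library totals without TMM scaling the day 2 and day 4 values, 0.99 and 0.94, were called (adjusted p 0.0313 and 0.0249).

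Fbln5 (ENSMUSG00000021186) encodes fibulin-5, which links elastin to microfibrils and cells. Day 1 CTRL libraries held 297, 307, 338 and 337 CPM and EXP libraries 273, 116, 134, 129 and 170.4 CPM, a fall of 0.96 (SE 0.23, edgeR adjusted p 0.00417) on the log2 scale. On day 2 the ranges of 332, 339 and 476 CPM in CTRL and 284, 393 and 265 CPM in EXP overlapped, and the value of -0.29 (SE 0.29, edgeR adjusted p 0.555) turned to 0.18 without TMM scaling. On day 4 CTRL libraries held 490.3, 426, 639 and 409.6 CPM and EXP libraries 193, 147 and 287 CPM, a fall of 1.23 (SE 0.28, edgeR adjusted p 0.00447). The libraries of days 1 and 4 did not overlap, and no left-out library removed either call.

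Efemp2 (ENSMUSG00000024909) encodes fibulin-4, which brings lysyl oxidase to tropoelastin. Day 1 libraries held 117, 85.6, 153 and 123 CPM in CTRL and 160.4, 207, 159.6, 130.1 and 150.0 CPM in EXP, at 0.43 (SE 0.26, edgeR adjusted p 0.232). On day 2 CTRL libraries held 73.0, 104 and 115 CPM and EXP libraries 363, 244 and 298 CPM, a rise of 1.63 (SE 0.33, edgeR adjusted p 0.00296) on the log2 scale. On day 4 CTRL libraries held 117, 116, 120.4 and 139 CPM and EXP libraries 699.9, 869 and 228 CPM, a rise of 2.28 (SE 0.30, edgeR adjusted p 1.43e-04). Every EXP library of days 2 and 4 stood above every CTRL library of the study, and no left-out library removed a call.

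**Figure D2:**
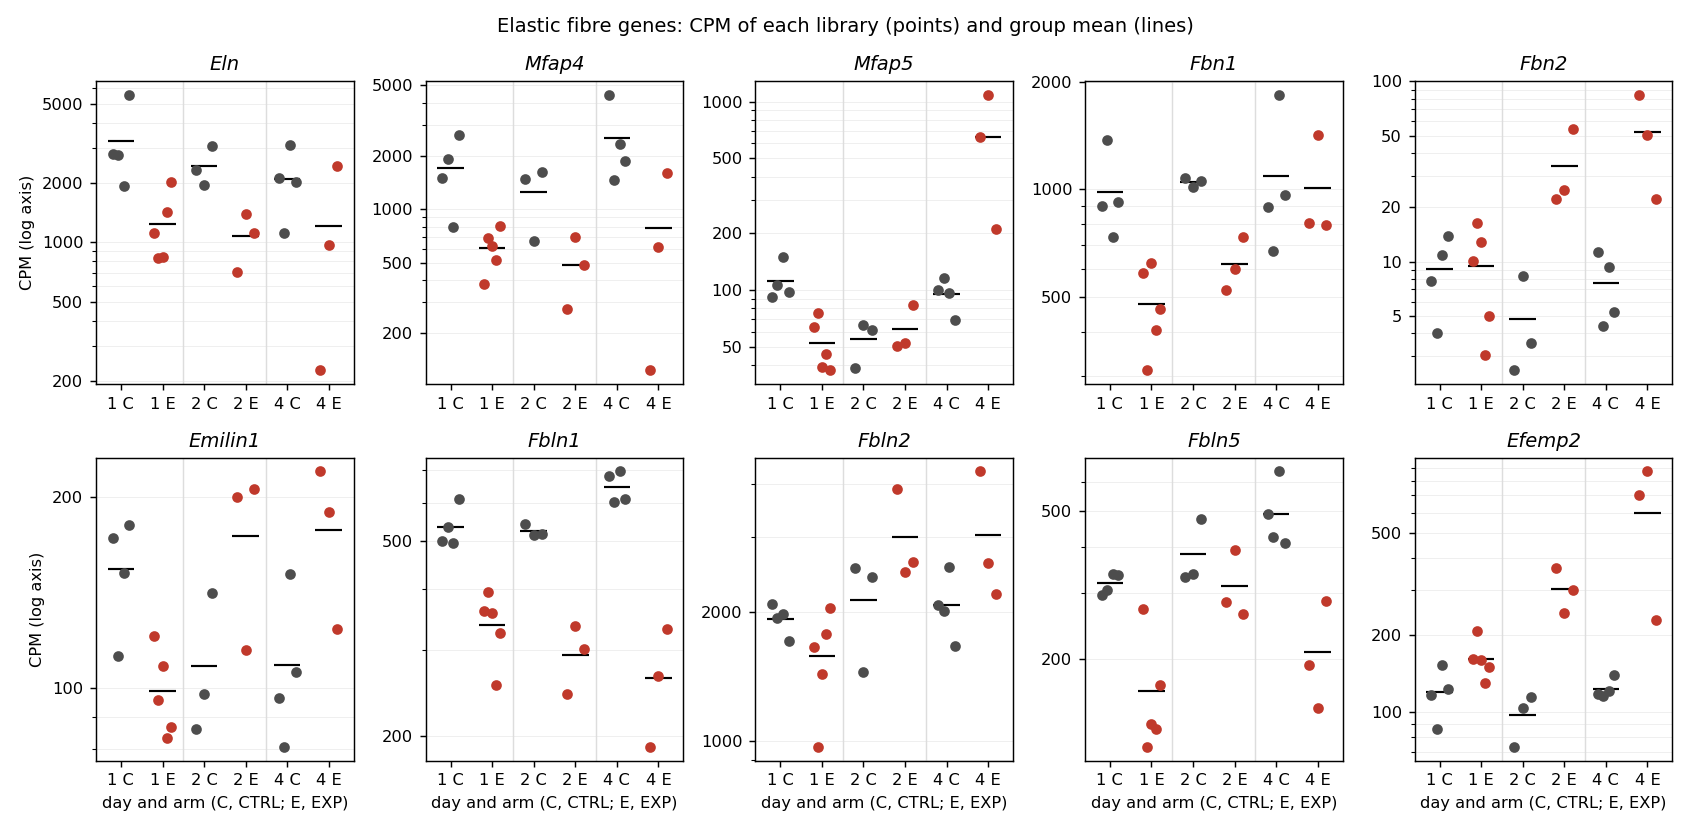
CPM of the elastic fibre genes (log axes) in the 6 groups of day and arm, CTRL in grey and EXP in red, with 1 point for each library and a line at the group mean. The day 4 EXP points of Mfap5, at 211 to 1087 CPM, stand above all other libraries, and those of Eln spread from 226 to 2436 CPM.

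Exons of 5 members overlap an exon of a gene on the opposite strand in GENCODE M21, and the strandedness of the counting is not given in the sources used here, so their counts are uncertain to that extent. The overlapping gene was at most 0.343 CPM for Eln (Gm30003), 0.230 CPM for Fbn1 (Gm9913), 10.8 CPM for Efemp2 (Mus81) and 25.8 CPM for Mfap4 (Mapk7). For Fbn2 the overlapping gene, Gm26507, was not analysed here.

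The effect of the expander depended on the day for 4 of the 10 members by a joint edgeR test of the difference between days, which called 8.82% of all tested genes. These were Mfap5 (adjusted p 6.45e-04), Efemp2 (0.0143), Emilin1 (0.0175) and Fbn2 (0.0329). From day 1 to day 4 the effect moved up by 3.85 for Mfap5, 2.75 for Fbn2, 1.85 for Efemp2 and 1.35 for Emilin1 on the log2 scale, each past the test at a background of 13.3% (edgeR adjusted p 3.00e-04, 0.0242, 0.00559 and 0.0131). The Fbn2 day dependence was lost in 11 of the 22 fits that left out 1 library and with no filter (adjusted p 0.0862). That of the other 3 genes was lost in 0 of 22 such fits. With the replicate number as a block, the joint test called Mfap5 alone of the members, at a background of 2.28%. Efemp2 (adjusted p 0.128), Emilin1 (0.103) and Fbn2 were then not called. The labels do not say that these numbers pair the libraries. The difference between the day 1 and day 4 effects was not called for Eln (0.60, SE 0.71, adjusted p 0.610) or Mfap4 (-0.19, SE 0.78, adjusted p 0.901).

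Over the days within EXP 7 members changed (Fbn1, Fbn2, Fbln2, Fbln5, Efemp2, Mfap5 and Emilin1), where the joint test called 14.3% of all tested genes. Leaving out 1 EXP library removed the call in 6 of 11 fits for Fbn1, 7 of 11 for Fbln5 and 5 of 11 for Emilin1. The fit of EXP libraries alone, which called 7.61% of tested genes, did not call Fbn1, Fbln2, Fbln5 or Emilin1 (adjusted p 0.0685, 0.0789, 0.143 and 0.0606). With the replicate block only Mfap5 was called, at a background of 7.91%. Mfap5 rose by 3.39 (SE 0.44, edgeR adjusted p 0.00167) from day 2 to day 4, the single member to pass that step, in which 0.387% of all tested genes did. From day 1 to day 4, a step in which 19% of tested genes were called, Fbn1 rose by 1.08 (SE 0.28, edgeR adjusted p 0.0123) and Efemp2 by 1.89 (SE 0.28, edgeR adjusted p 1.42e-04). Fbln2 and Fbln5 rose from day 1 to day 2, by 0.92 (SE 0.25, edgeR adjusted p 0.0476) and 0.93 (SE 0.25, edgeR adjusted p 0.0483), where 2.63% of tested genes were called.

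Within CTRL 0 of the 10 members were called over the days in the edgeR joint test, at a background of 0.291% of tested genes, and 1 had an unadjusted p under 0.05 (Mfap5). DESeq2 and limma voom also called 0 of 10, at backgrounds of 3.31% and 3.44%.

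The EXP libraries of a day were not alike. On day 4 replicate 3 lay nearest the CTRL mean for 9 of the 10 members, with Mfap5 at 211 CPM against 646 and 1087 CPM in the other libraries and Eln at 2436 CPM against 226 and 969 CPM. On day 2 replicate 2 lay nearest for 8 of 10. Without day 4 EXP replicate 3, 8 of 10 members were called, Eln and Mfap4 being added to the 6, and the share over all tested genes rose from 22.5% to 27.3%.

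The summed adipocyte markers were highest in that day 4 library. Over 6 genes the sum in the day 4 EXP libraries was 42.6, 101 and 290.0 for replicates 1, 2 and 3, against 0.335 to 1.69 in CTRL, and all 5 tested markers rose. In the day 2 EXP libraries it was 63.2, 6.84 and 14.0, against 0.249 to 1.03 in CTRL. On day 1 it was 1.48 to 24.7 in CTRL and 0.835 to 9.53 in EXP. Lep was at 0 in 17 of the 22 libraries. The part of these cells in the members' values was not tested.

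**Figure D3:**
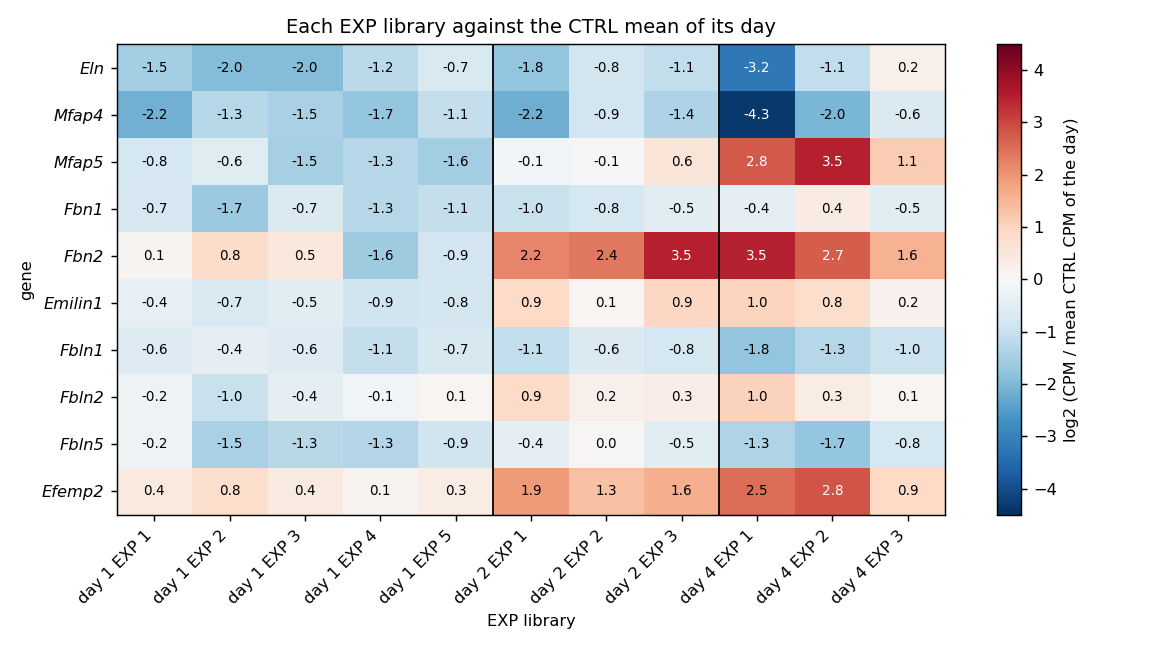
Log2 ratio of the CPM of each EXP library to the mean CTRL CPM of its day, for each elastic fibre gene (rows) and EXP library (columns), blue below and red above 0. In the last column, day 4 replicate 3, the values are nearer 0 than in its neighbours for 9 of 10 genes.

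The 10 genes together held 0.887% ± 0.195 of the counts of the 4 day 1 CTRL libraries (mean ± SD), against 0.529% ± 0.110 in the 5 EXP libraries. On day 2 their share was 0.669% ± 0.109 in CTRL (n = 3) against 0.737% ± 0.0806 in EXP (n = 3). On day 4 it was 0.797% ± 0.192 in CTRL (n = 4) against 0.863% ± 0.111 in EXP (n = 3). Every day 1 EXP library, at 0.377% to 0.668%, was below every day 1 CTRL library, at 0.699% to 1.16%. On days 2 and 4 the ranges overlapped. These shares are of library totals without TMM scaling, unlike the CPM. On such totals the median log2 fold change of all tested genes was 0.21, 0.49 and 0.36 on days 1, 2 and 4. The higher EXP mean shares of days 2 and 4 stand beside that shift and are not read as a rise.

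Levels of different genes were compared only per kilobase of the longest annotated transcript. Over the 11 CTRL libraries the order by median CPM per kb was Mfap4 (916), Eln (601), Fbln2 (421), Fbln1 (149), Fbn1 (80.5), Fbln5 (58.2), Efemp2 (44.4), Mfap5 (38.8), Emilin1 (29.1) and Fbn2 (0.709). Neighbours overlapped in range throughout, except Fbln2 with Fbln1 and Emilin1 with Fbn2. Over the 11 EXP libraries Fbln2 led, at 462 CPM per kb, before Mfap4 at 345 and Eln at 290.5, with overlapping ranges. Per kilobase of coding sequence Mfap4 led at 724 and Fbln2 followed at 604, and on day 1 Mfap4 (350.1) and Fbln2 (346) were close per kilobase of transcript.

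In day 4 EXP libraries Efemp2 and Mfap5, at medians of 266 and 259 CPM per kb, ranked 3 and 4, ahead of Eln at 251, with ranges that overlapped. In day 4 CTRL they ranked 7 and 8, at 45.1 and 39.5 CPM per kb. Per kilobase of coding sequence Mfap5 ranked 1 in day 4 EXP and 6 in day 4 CTRL, so its place too depends on the length used.

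**Figure D4:**
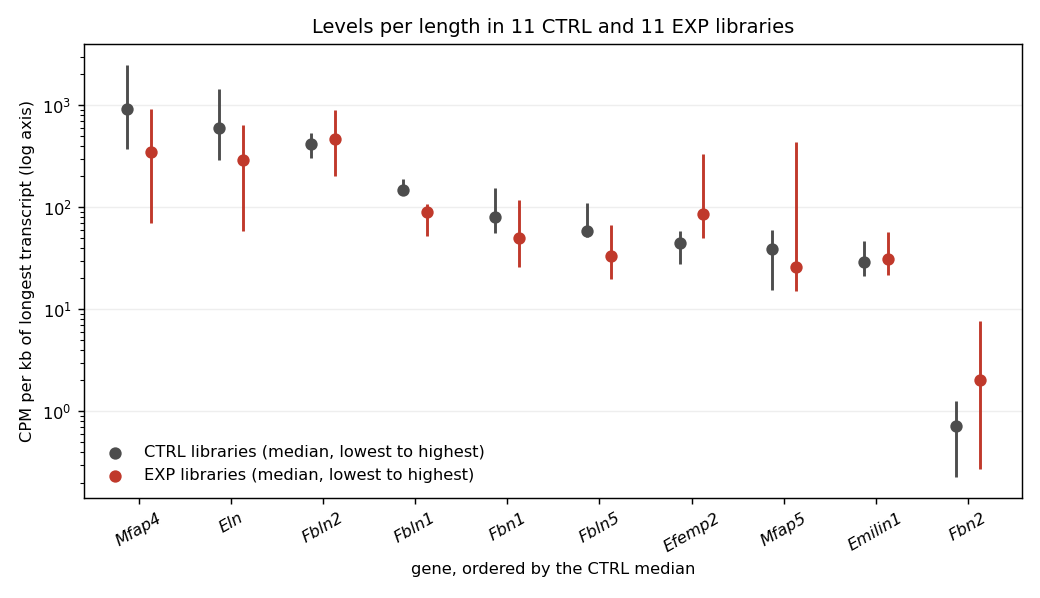
Median CPM per kb of the longest transcript (points, log axis) and the lowest to highest value (lines) over 11 CTRL libraries in grey and 11 EXP libraries in red, for the elastic fibre genes in order of the CTRL median. Mfap4, Eln and Fbln2 lead in both arms, and the EXP line of Mfap5 reaches 437 CPM per kb.

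Genes of the wider elastic fibre pathway were read from lists. Counts of called genes in these lists and in the marker lists are read beside the shares of all tested genes. Those shares were 13.9% higher and 14.7% lower on day 1, 7.72% and 5.71% on day 2, and 12.8% and 9.66% on day 4. The joint test of day dependence called 8.82%. The lysyl oxidases, which cross-link elastin and collagen, differed between days: of 5 tested, 0 rose and 1 fell on day 1, 2 rose and 1 fell on day 2, and 3 rose and 1 fell on day 4, with median log2 fold changes of -0.01, 0.83 and 1.21. Loxl1 rose by 1.55 (SE 0.30, edgeR adjusted p 0.00201) on day 2 and 1.80 (SE 0.27, edgeR adjusted p 3.21e-04) on day 4, when CTRL held 95.0 to 113 CPM and EXP 156 to 513 CPM. Loxl3 rose by 3.15 (SE 0.76, edgeR adjusted p 0.0103) and 4.18 (SE 0.70, edgeR adjusted p 8.34e-04) on those days, from 5.70 to 12.4 CPM in day 4 CTRL to 32.0 to 336 CPM in EXP. Loxl2 fell by 1.33 (SE 0.24, edgeR adjusted p 4.26e-04) on day 1. The effect depended on the day for all 5 lysyl oxidases in the joint edgeR test.

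Other microfibril, fibulin and emilin genes were called in 1 direction. Of 10 tested, 4 fell on day 1, 2 on day 2 and 3 on day 4, and 0 rose on any day, with medians of -1.03, -0.67 and -0.70. Hmcn1, a giant fibulin-family protein, fell by 1.47 (SE 0.23, edgeR adjusted p 1.02e-04) on day 1 and Emilin2 fell by 1.97 (SE 0.32, edgeR adjusted p 1.80e-04). The Emilin2 effect depended on the day in the joint edgeR test. On day 4 Emilin2 held 154 to 227 CPM in CTRL and 209 to 514 CPM in EXP, without a call. Ltbp4, which holds latent TGF-beta and helps to assemble elastin, fell by 1.84 (SE 0.49, edgeR adjusted p 0.0170) on day 2 and fell by 3.03 (SE 0.50, edgeR adjusted p 6.66e-04) on day 4. Efemp1, encoding fibulin-3, fell by 0.99 (SE 0.31, edgeR adjusted p 0.0348) on day 2 and fell by 1.51 (SE 0.30, edgeR adjusted p 0.00206) on day 4.

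Among the ADAMTS and ADAMTS-like proteins of microfibrils more were called lower than higher on each day. Of 9 tested, 5 fell on day 1, 4 fell and 1 rose on day 2, and 3 fell on day 4, with medians of -1.18, -1.11 and -0.54. Adamts10, a fibrillin-binding protease, fell by 1.68 (SE 0.22, edgeR adjusted p 2.14e-05), 1.61 (SE 0.27, edgeR adjusted p 8.32e-04) and 1.14 (SE 0.25, edgeR adjusted p 0.00438) on days 1, 2 and 4. Adamtsl4 fell by 2.00 (SE 0.25, edgeR adjusted p 1.86e-05) on day 1, Adamtsl5 fell by 0.89 (SE 0.30, edgeR adjusted p 0.0348) on day 4, and Adamtsl3 rose by 1.54 (SE 0.39, edgeR adjusted p 0.0123) on day 2.

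Among 6 tested proteases that degrade elastin, 1 rose and 1 fell on day 1, 1 rose on day 2, and 3 rose and 1 fell on day 4, with medians of 0.02, 0.07 and 0.05, unchanged with genes at the 3-count floor set to their bounds. Mmp12, macrophage elastase, rose on every day at low levels, from 0 to 0.377 CPM in the CTRL libraries of all days to 0.509 to 7.09 CPM in EXP. Mmp9, gelatinase B, fell on day 1 and rose on day 4, where EXP held 1.32 to 16.6 CPM and CTRL 0.0419 to 0.346 CPM. Macrophages and neutrophils also make both proteases, and haematopoietic markers did not share a direction. Csf1r, a macrophage receptor and the marker that reached the highest CPM (158), held 105 to 142 CPM in CTRL and 34.5 to 123 CPM in EXP on day 4 and fell on day 1. Ptprc, the gene of CD45, was at 0 in 16 of the 22 libraries and at most 0.243 CPM, and Lyz2 was at most 4.37 CPM. Cd68 rose on days 1 and 2, S100a8 rose on all 3 days at 4.74 CPM or less, and Cd3e rose on day 4, from 0.293 to 6.92 CPM in CTRL to 12.96 to 28.9 CPM in EXP. The part of such cells in the protease values was not tested.

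Of 6 tested protease inhibitors, 2 rose and 1 fell on day 1, 2 rose on day 2 and 3 rose on day 4, with medians of 0.42, 1.18 and 0.62. Timp1, an inhibitor of matrix metalloproteinases, rose by 2.38 (SE 0.31, edgeR adjusted p 2.13e-05), 3.24 (SE 0.38, edgeR adjusted p 4.15e-05) and 3.02 (SE 0.34, edgeR adjusted p 8.78e-05) on the 3 days. Serpine2, an inhibitor of serine proteases, rose by 1.28 (SE 0.27, edgeR adjusted p 0.00433) on day 2 and 2.00 (SE 0.25, edgeR adjusted p 1.29e-04) on day 4. Timp3 fell by 1.94 (SE 0.31, edgeR adjusted p 1.59e-04) on day 1.

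Receptors of elastin, fibrillin and fibulin were tested as 12 genes, of which 1 rose and 4 fell on day 1, 1 rose and 2 fell on day 2 and 1 rose on day 4, with medians of -0.34, 0.17 and 0.01. Itga5, a subunit of the fibronectin and fibrillin-binding integrin, was the one that rose each time, by 1.43 (SE 0.32, edgeR adjusted p 0.00635) on day 2 and 1.28 (SE 0.30, edgeR adjusted p 0.00547) on day 4. Glb1, lysosomal beta-galactosidase, fell by 1.15 (SE 0.22, edgeR adjusted p 5.55e-04) on day 1 and 0.95 (SE 0.27, edgeR adjusted p 0.0215) on day 2, and Itgb5, an integrin subunit, by 1.02 (SE 0.22, edgeR adjusted p 0.00151) on day 1.

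Growth factors of the TGF-beta family are held latent on microfibrils. Of 5 tested, 2 fell on day 1, 1 rose and 2 fell on day 2 and 3 fell on day 4, with medians of 0.19, -0.28 and -1.16. Tgfb3 fell by 1.26 (SE 0.17, edgeR adjusted p 2.55e-05) on day 1, rose by 0.81 (SE 0.20, edgeR adjusted p 0.0125) on day 2 and fell by 0.78 (SE 0.19, edgeR adjusted p 0.00816) on day 4. Bmp4 fell by 2.17 (SE 0.45, edgeR adjusted p 0.00160), 1.75 (SE 0.56, edgeR adjusted p 0.0431) and 2.09 (SE 0.55, edgeR adjusted p 0.0117). The joint test of day dependence called Tgfb3 alone in this list.

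**Figure D5:**
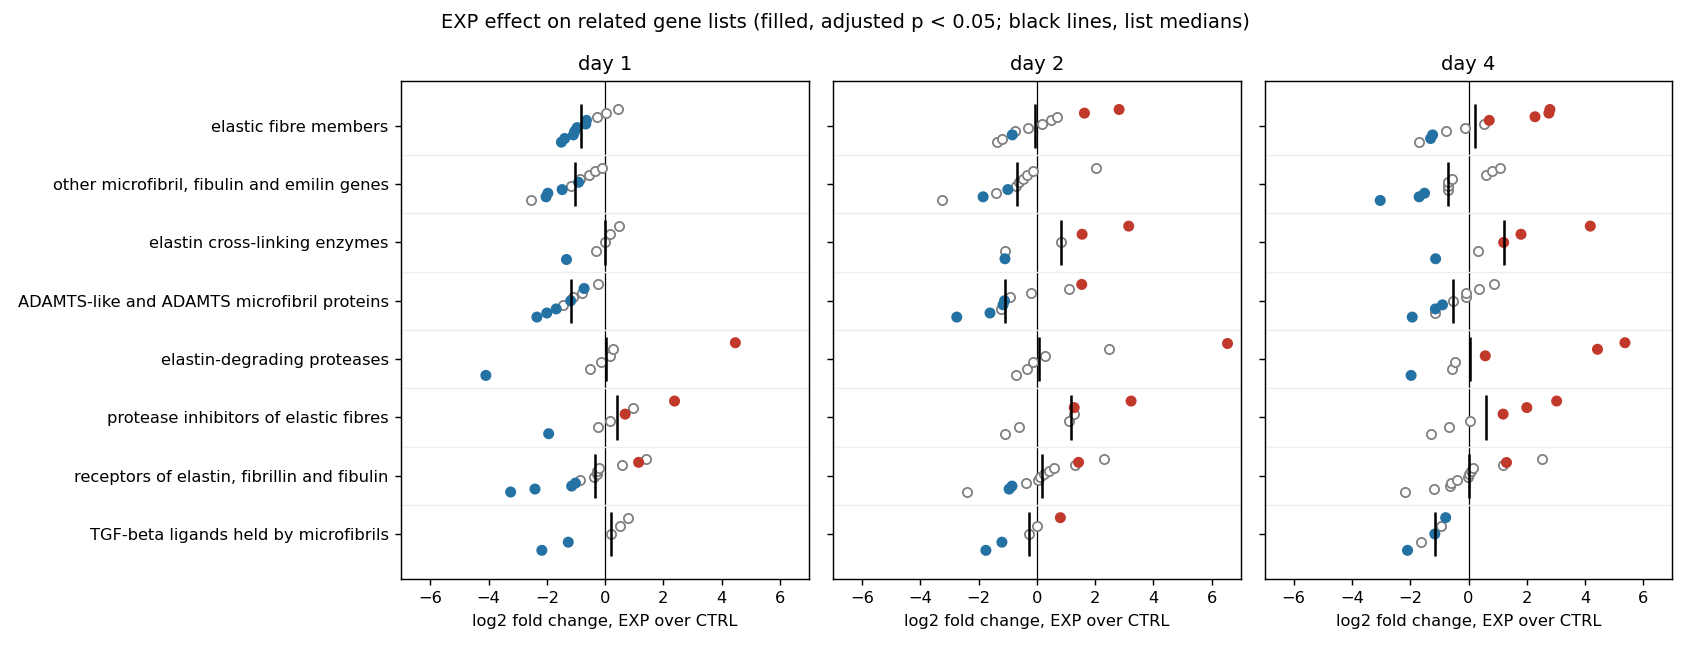
Log2 fold change of EXP over CTRL (x axis) of each tested gene of 8 elastic fibre lists (y axis) on days 1, 2 and 4, filled red (higher) or blue (lower) where the edgeR adjusted p was under 0.05, open otherwise, with black lines at list medians. The median of the cross-linking enzymes moves from -0.01 to 0.83 and 1.21, and no filled point of the other microfibril, fibulin and emilin genes lies above 0.

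Fibroblast subset markers moved as well. Of 11 fascia and adventitial fibroblast markers 6 fell and 0 rose on day 1, 4 fell and 1 rose on day 2, and 1 fell and 3 rose on day 4, with medians of -1.10, -0.33 and 0.08. Dpp4 fell by 2.31 (SE 0.26, edgeR adjusted p 6.20e-06) and Creb5 by 1.72 (SE 0.25, edgeR adjusted p 6.69e-05) on day 1. Creb5 fell by 2.28 (SE 0.32, edgeR adjusted p 1.83e-04) and Cd55 by 2.25 (SE 0.38, edgeR adjusted p 8.81e-04) on day 2, and on day 4 Anxa3 rose by 3.88 (SE 0.72, edgeR adjusted p 0.00169) and Plac8 by 4.69 (SE 1.06, edgeR adjusted p 0.00529). Whether the mix of fibroblast subsets changed with the members was not tested.

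Of 8 general dermal fibroblast genes 3 fell and 1 rose on day 1, 5 fell and 1 rose on day 2, and 3 fell and 1 rose on day 4, with medians of -0.62, -1.10 and -0.97. The one that rose on each day was Pdgfra, the sorted receptor, by 0.84 (SE 0.25, edgeR adjusted p 0.0154) on day 1 and 1.71 (SE 0.31, edgeR adjusted p 0.00134) on day 2. Col3a1 fell by 1.35 (SE 0.29, edgeR adjusted p 0.00188) on day 1 and Col1a1 by 1.85 (SE 0.42, edgeR adjusted p 0.00693) on day 2. On day 4 Dcn, encoding decorin, fell by 1.13 (SE 0.22, edgeR adjusted p 0.00216) and Lum, encoding lumican, fell by 1.67 (SE 0.36, edgeR adjusted p 0.00349).

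Markers of other cell types were summed over each list. The sort discarded cells with CD31 (endothelial), CD45 (haematopoietic), EpCAM (epithelial) or CD117 (mast cells and some melanocytes). Endothelial markers summed to 0.0449 to 4.25 CPM in CTRL and 0.796 to 11.4 CPM in EXP libraries, and Kdr on days 2 and 4 and Emcn on day 4 rose. Haematopoietic markers summed to 43.2 to 164 CPM in CTRL and 36.9 to 142 CPM in EXP libraries, and of 5 tested 2 rose on each day and 1 fell on day 1. The sums were 23.8 to 60.2 and 17.5 to 53.3 CPM for melanocyte markers, 4.48 to 41.2 and 2.16 to 17.1 CPM for epithelial markers and 9.11 to 17.5 and 4.59 to 16.1 CPM for Schwann cell markers. They were 1.22 to 3.23 and 0.637 to 4.48 CPM for skeletal muscle markers and 0.135 to 1.95 and 0.0318 to 1.61 CPM for chondrocyte markers. Among the melanocyte markers Mitf and Mlana reached 45.3 and 36.5 CPM, and Dct, Kit, Pmel and Tyrp1 at most 1.84 CPM. Over these 5 lists together 3 markers were called on day 1 (Mitf, Krt10 and S100b, all lower), 2 on day 2 (Tyrp1 and Tnnt3, both lower) and 2 on day 4 (Tyrp1 lower and Acta1 higher). The part of such cells in the members' values was not tested.

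By the root mean square difference of centred log2 CPM over 22 libraries, the genes most like Eln among those with a mean of at least 5 CPM were Tlr5 (0.428), Adamtsl5 (0.481) and Tmem246 (0.489). The nearest member was Mfap4, at 0.631. For Fbn1 they were Dym (0.331), Mppe1 (0.332) and Fam129a (0.343), and the nearest member was Fbln5, at 0.575. These are descriptions over libraries that share their preparation.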

How the data were processed

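The members and all gene lists were chosen with earlier results of these data known. The authors deposited 1 table of raw counts per gene, with Ensembl identifiers and 0 columns outside the labels. Per the submitters' processing notes, Trimmomatic and build mm39 were used. The aligner, the counting tool, the annotation and strandedness are not given in the sources used here. Coordinates other than the RefSeq promoter windows are therefore not printed. Symbols and transcript lengths came from GENCODE M21, which named 52081 of 55414 identifiers.

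The fits used edgeR 4.0.16 under R 4.3.3 on the deposited counts, without rounding or correction. The filter was filterByExpr with a minimum count of 10 across the 6 groups, totals were scaled by TMM, and 1 mean per group was fitted to all 22 libraries by the robust quasi-likelihood method (16 residual degrees of freedom). Benjamini-Hochberg adjustment ran over the tested genes of each contrast, and an adjusted p below 0.05 made a call. CPM are on TMM-scaled totals, with a prior count of 2 on the log2 scale. All 10 members are described whether or not they were called. From each other list counts, medians and the 2 called genes with the smallest p per day were named, and for Eln and Fbn1 the 3 most similar genes. Cd34, Emcn, Kdr, Acta2 and other markers were named beside these. Where all libraries of a group held 3 counts or fewer, no fold is given.

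Counts were simulated for all 22 libraries with a single spread for all genes (14944 genes, 200 of them changed in day 1 EXP). On these, edgeR recovered 32% of 2-fold and 100% of 4-fold changes, with 1 false call among 133. Over the 31 replicate pairs the chi-square statistic was 26.7 to 403 times its degrees of freedom, above what sampling noise gives, and none was treated as a single library. Alternatives were DESeq2 1.42.0 as test or for size factors, limma 3.58.1 voom with quality weights, library totals without TMM or without the 10 genes with most counts, no filter, single-day or single-arm fits, a replicate block, the library split as a covariate or held fixed, coding length, a fold change threshold and each library left out.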

Additional observations from a re-analysis of the deposited data

Results flagged for a closer look

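For 4 members the effect of the expander differed between days 1, 2 and 4 by a joint edgeR quasi-likelihood test. The adjusted p was 6.45e-04 for Mfap5, whose log2 fold changes were -1.09, 0.17 and 2.76. It was 0.0143 for Efemp2 (0.43, 1.63 and 2.28), 0.0175 for Emilin1 (-0.64, 0.68 and 0.71) and 0.0329 for Fbn2 (0.04, 2.82 and 2.79). In 30 groups of 4 or 5 library values 0 held a library far from the others, where chance gives 1.5. The day 2 groups and day 4 EXP, with 3 libraries each, were not in this check. The members share the same libraries, so the chance figure is only a rough guide.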

How the results depend on the processing

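Library totals without TMM moved the median log2 fold change of all tested genes to 0.21, 0.49 and 0.36 on days 1, 2 and 4, and the share of calls that were higher from 48.7%, 57.5% and 57.0% to 66.2%, 90.5% and 80.7%. With a change of at least 1 on the log2 scale required, 4 members were called on day 1 in place of 7. The share over all tested genes under this setting is not given here. Within 1 side of the library split 2 were called on day 1 and 0 on day 4, with fewer libraries in the fit. There 13.9% and 0.00607% of all tested genes were called. On day 2 limma voom called 7 members and the fit of day 2 alone 6, in place of 3, while the share over all tested genes rose from 13.4% to 26% and 22.9%. The change over days within EXP held 3 called members, in place of 7, in the fit of EXP libraries alone, where 7.61% of tested genes were called. Leaving out 1 library gave 4 to 6 called members on day 1, 2 to 4 on day 2, 5 to 8 on day 4, 3 to 4 for the difference between days, 4 to 7 over the days within EXP (4 without day 1 EXP replicate 4 or 5) and 0 to 0 within CTRL. Without day 1 CTRL replicate 4, 4 members were called on day 1. The causes were not tested.

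Same-numbered CTRL and EXP libraries correlated in their deviations by -0.0664 to 0.164 on day 1 and -0.0623 to -0.00327 on day 2. On day 4 the correlations were 0.0795 to 0.146. The labels do not say that the numbers pair the libraries, and they were not taken to do so. The library correlated best was the same-numbered one for 3 of 8 libraries on day 1, 0 of 6 on day 2 and 6 of 6 on day 4, a hint from the data and not from the design. With a replicate block, 4 members were called on day 1, 3 on day 2, 5 on day 4, 1 for the difference between days (Mfap5), 1 over the days within EXP (Mfap5) and 0 within CTRL. The shares over all tested genes were 24.7%, 12.6%, 15.4%, 2.28%, 7.91% and 0%.

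Signs turned for 4 uncalled values, in all cases without a call. Fbn2 on day 1 was -0.38 with voom and -0.25 to 0.31 without single libraries. Fbln5 on day 2 was 0.18 on library totals. Mfap5 on day 2 was -0.11 to 0.31 without single libraries. Fbn1 on day 4 was 0.20 on library totals, 0.23 with voom, 0.044 with the split as covariate, 0.36 within 1 side of the split and -0.48 to 0.26 without single libraries. On counts simulated for all 22 libraries, with 200 of 14944 genes changed in day 1 EXP alone, 32% of 2-fold changes were recovered. Every simulated gene had the same spread, and far fewer genes were changed than the 28.6% called on day 1. The 32% is therefore not the recovery of the tests on these data.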
